A study of Sus scrofa with 9 samples.

Results

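Heart RNA of wild-type miniature pigs given doxorubicin plus formononetin was compared with heart RNA of wild-type miniature pigs given doxorubicin alone. Each of these groups had 3 libraries, chosen by the treatment in their labels, so the comparison uses 6 of the 9 libraries of the series and every gene of the count table. The other 3 libraries are from wild-type miniature pigs given vehicle and serve as a further set of values beside each result. All 3 groups were labelled as heart, and the libraries of doxorubicin plus formononetin are called combination libraries below. Doxorubicin was given in both groups compared, so the comparison is about the addition of formononetin and not about doxorubicin itself. Formononetin without doxorubicin was not analysed here. Neither dose, time after treatment, part of the heart, age nor sex was given in the sources used here. The labels do not tell whether the replicates of a treatment are separate animals. The p-values therefore reflect the spread among the libraries at hand, and that spread may be technical.

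Doxorubicin is an anthracycline that traps topoisomerase II on DNA, and damage to heart muscle limits its use against tumours. Formononetin is a methoxylated isoflavone of legumes, a plant compound of the phytoestrogen class. ERR-alpha, the product of ESRRA, is an orphan nuclear receptor related to estrogen receptors that works with the coactivators PGC-1 alpha and PGC-1 beta. In heart muscle it drives genes of fatty acid oxidation, the TCA cycle, the respiratory chain, calcium cycling and contraction. The title of the series names activation of the ERR-alpha pathway and mitochondrial metabolism as its subject in anthracycline cardiotoxicity.

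Total counts per library ranged from 16291952 to 17549359. Cardiomyocyte marker transcripts were abundant in all 9 libraries, with a summed level of 76537 to 82308 CPM (counts scaled to the library total) in combination libraries, 56219 to 65316 CPM in doxorubicin libraries and 84811 to 95355 CPM in vehicle libraries. Combination replicate 2 stood apart from the rest. It had counts for 14766 genes, while the other 8 libraries had counts for 18107 to 19304. The biological coefficient of variation was 31.5% among combination libraries, 18.2% with that replicate left out, 16.1% among doxorubicin libraries and 13.1% among vehicle libraries. Genes of the mitochondrial chromosome took 25.7% ± 3.42 of counts in combination libraries, 23.7% ± 0.604 in doxorubicin libraries and 21.1% ± 0.296 in vehicle libraries (SD, n = 3 each). The exact two-sided permutation p of combination against doxorubicin for that share was 0.4, where 3 against 3 libraries allow no p below 0.1.

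The addition of formononetin went with a broad difference from doxorubicin alone. Genes called lower included transcripts of cardiac strain, interferon response, p53 response, protein folding and macrophages. Genes called higher included transcripts of contraction, calcium release, energy metabolism, resident fibroblasts, vessels and Schwann cells. Of 14846 genes tested, 2176 were higher and 1997 were lower in combination libraries, 28.1% in all, at an adjusted p under 0.05 by the edgeR quasi-likelihood test. Higher calls made up 14.7% of the genes tested and lower calls 13.5%. The counts of each gene list below are to be read beside these shares. A change of at least 2-fold was called for 743 genes upward (5.0%) and 503 downward (3.39%), 8.39% together. The 3 libraries of a group did not overlap with the 3 of the other for 6265 genes, 42.2% of those tested. The median log2 fold change of all genes tested was -0.01. With combination replicate 2 left out, 3424 of the 4173 called genes were still called. In the same fit 4947 genes, 33.3%, were called between doxorubicin and vehicle libraries, and 262 genes, 1.76%, between combination and vehicle libraries. These comparisons share libraries with the one described here, so their values are set side by side below and no overlap is counted.

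**Figure D1:**
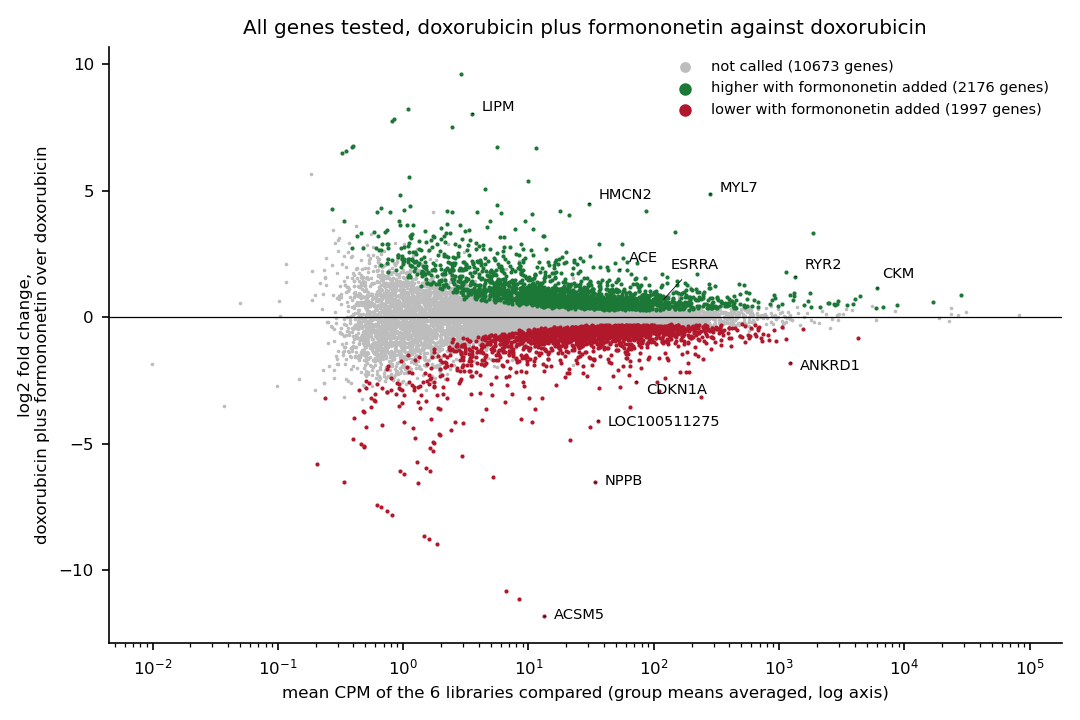
Log2 fold change of doxorubicin plus formononetin over doxorubicin (y axis) against mean CPM (x axis, log scale) for the 14846 genes tested, each point a gene, with 2176 called higher in green, 1997 called lower in red and 10673 not called in grey. Labelled genes span LIPM, MYL7 and HMCN2 at the top and NPPB and ACSM5 at the bottom, and ESRRA lies among many small upward changes. Fitted values of genes with no counts in a group, such as ACSM5, depend on the prior count of the fit.

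Among the largest rises was MYL7, the myosin regulatory light chain of atrial muscle. MYL7 had 541, 368 and 708 CPM in combination libraries, against 13.7, 26.8 and 15.1 CPM in doxorubicin libraries and 710 ± 49.5 CPM in vehicle libraries (SD, n = 3). Every combination library was more than 10-fold above every doxorubicin library, and the log2 fold change was 4.86 ± 0.30 (SE, adjusted p = 1.52e-05). MYL7 lies on chromosome 18 from 51026436 to 51028917 of the pig assembly Sscrofa11.1. The locus annotated as myosin-6, LOC100736765, the alpha heavy chain of fast cardiac myosin, was chosen after its values were seen. It had 3760, 4130 and 2359 CPM in combination libraries, against 276, 382 and 353 CPM in doxorubicin libraries and 1239 ± 357 CPM in vehicle libraries, a log2 fold change of 3.34 ± 0.25 (adjusted p = 2.75e-05). MYH7, the slow heavy chain of ventricular muscle, averaged 27828 ± 909 CPM in combination libraries and 25875 ± 1632 CPM in doxorubicin libraries and was not called (log2 fold change 0.10 ± 0.10, adjusted p = 0.453).

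HMCN2, encoding the matrix protein hemicentin 2, had 49.0, 56.9 and 68.0 CPM in combination libraries and 5.95, 0.888 and 0.738 CPM in doxorubicin libraries, with 70.1 ± 7.70 CPM in vehicle libraries. AGT, encoding angiotensinogen, the precursor of the angiotensins, had 128, 208 and 156 CPM in combination libraries and 19.1, 3.14 and 4.37 CPM in doxorubicin libraries, with 278 ± 123 CPM in vehicle libraries. In both genes the groups were far apart, and doxorubicin replicate 1 was the highest of its group. The log2 fold changes were 4.48 ± 0.51 for HMCN2, 4.20 ± 0.59 for AGT and 4.45 ± 0.48 for the elastic fibre glycoprotein EMILIN3. Without doxorubicin replicate 1 they were 6.14, 5.45 and 5.11. NTRK2, the receptor for brain-derived neurotrophic factor, rose by 4.18 ± 0.78 on the log2 scale (3.44 without combination replicate 2 and 5.53 without doxorubicin replicate 1). MYOC, a secreted glycoprotein known from the outflow tissue of the eye, rose by 4.14 ± 0.74, and its adjusted p was 0.0614 by limma-voom.

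Several of the 12 largest rises concerned transcripts that were nearly missing with doxorubicin. LIPM, a lipase known from human epidermis, had 342 counts over the combination libraries and 1 over the doxorubicin libraries, a ratio of 357 with a 95% exact interval from 63.6 to 14141 that covers counting error only. Vehicle libraries had 4.34 ± 1.81 CPM of LIPM. The uncharacterized locus LOC102167067 had no counts in doxorubicin or vehicle libraries and 3.77, 8.43 and 5.11 CPM in combination libraries, at least 32.8-fold higher against a floor of 3 counts per library. LOC106504698, also uncharacterized, had 516 counts over the combination libraries and 5 over the doxorubicin libraries, a ratio of 108 (95% exact interval 45.9 to 333), with most of them in combination replicate 3 (28.8 CPM, against 3.10 and 1.49 CPM in the other two). Its adjusted p was 0.311 by limma-voom, and its log2 fold change of 6.72 was 4.45 without combination replicate 3 and 7.42 without doxorubicin replicate 3. A pair of liver carboxylesterase loci, LOC110255234 and LOC100736962, whose enzymes hydrolyse ester drugs and lipids, had 11.5, 34.8 and 11.6 CPM and 16.1, 38.5 and 13.4 CPM in combination libraries. All doxorubicin libraries were below 0.6 CPM for both, and vehicle libraries had 2.57 ± 0.542 CPM and 0.336 ± 0.389 CPM. Their log2 fold changes, 5.40 ± 0.54 and 6.68 ± 0.75, were 4.66 and 6.06 without combination replicate 2, and that of LOC100736962 was 8.43 without doxorubicin replicate 2. SLA-5, a class I gene of the swine leukocyte antigen complex, rose by 5.05 ± 0.76 (4.29 without combination replicate 3; limma-voom adjusted p = 0.0661), and its level was 8.72 ± 6.62 CPM in combination libraries and 0.261 ± 0.190 CPM in doxorubicin libraries.

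The largest falls held a transcript that the combination libraries lacked altogether. ACSM5, encoding a mitochondrial medium-chain acyl-CoA synthetase (chromosome 3, 25393121 to 25422551), had no counts in any combination library, against 22.4, 29.3 and 28.3 CPM in doxorubicin libraries and 45.2 ± 9.68 CPM in vehicle libraries. It was at least 145-fold lower against a floor of 3 counts per library. An unannotated locus of the authors' table had the same pattern, with no counts in combination libraries, 17.4, 12.7 and 9.41 CPM in doxorubicin libraries and 14.8 ± 2.26 CPM in vehicle libraries, at least 71.6-fold lower. LOC110255543, uncharacterized, had no counts in combination or vehicle libraries and 15.2, 16.3 and 18.8 CPM in doxorubicin libraries, at least 91.3-fold lower. LOC100511275, annotated as a class I-related gene of the major histocompatibility complex, had 3.83, 3.27 and 4.72 CPM in combination libraries, against 64.5, 69.8 and 67.7 CPM in doxorubicin libraries and 4.66 ± 1.03 CPM in vehicle libraries. The log2 fold change of LOC100511275 was -4.10 ± 0.18 (adjusted p = 1.02e-06), and the groups were narrow and far apart.

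MYL1, the light chain of fast skeletal muscle, had 7.48, 0.573 and 0.787 CPM in combination libraries and 36.3, 76.3 and 64.1 CPM in doxorubicin libraries, a log2 fold change of -4.32 ± 0.78 (-6.44 without combination replicate 1). CHI3L1, a chitinase-like glycoprotein of injured tissue, had 1.52, 1.38 and 1.38 CPM in combination libraries and 4.35, 27.5 and 92.6 CPM in doxorubicin libraries. The doxorubicin libraries of CHI3L1 spread widely, and its log2 fold change of -4.85 ± 0.86 was -3.48 without doxorubicin replicate 3, with an adjusted p of 0.173 by limma-voom and 0.0884 with sample weights. CTHRC1, a collagen-associated protein of activated fibroblasts, fell by 4.07 ± 0.70 (-4.81 without combination replicate 1 and -3.46 without replicate 2), and TLL2, a tolloid-like protease, by 4.18 ± 0.78 (-4.88 and -3.57). DUSP13, a phosphatase of testis and skeletal muscle, fell by 4.13 ± 0.68 (-3.52 without combination replicate 2 and -5.22 without replicate 3). LOC110260349, which has no description, had 6 counts in combination libraries and 528 in doxorubicin libraries, 84.3-fold lower (95% exact interval 38.5 to 231). The uncharacterized C8H4orf36 had 6 counts against 299, 47.7-fold lower (21.7 to 131). CTHRC1, TLL2, DUSP13, LOC110260349 and C8H4orf36 were each at 0 in combination replicate 2, the library with the fewest genes detected. Each was called without that library. The largest falls were chosen among genes called both with and without it, so these calls are no separate check on the zeros.

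Several markers of cardiac strain fell with formononetin added, and NPPA was not called. NPPB, the gene of the brain natriuretic peptide that strained heart muscle releases (chromosome 6, 71930374 to 71931843), had 0.548, 0 and 1.70 CPM in combination libraries, against 68.9, 65.0 and 66.7 CPM in doxorubicin libraries and 2.99 ± 3.28 CPM in vehicle libraries. The 3 doxorubicin libraries lay close together, far above all 6 others. Its log2 fold change was -6.52 ± 0.76 (adjusted p = 2.86e-04; -5.90 without combination replicate 2, which had none of it, and -7.93 without replicate 3). ANKRD1, a stretch-responsive protein of the titin spring, had 620, 440 and 587 CPM in combination libraries and 1631, 1930 and 2174 CPM in doxorubicin libraries, with 703 ± 294 CPM in vehicle libraries. CTGF, a matricellular growth factor, had 62.7, 52.2 and 59.8 CPM in combination libraries and 277, 245 and 269 CPM in doxorubicin libraries, with 69.1 ± 13.3 CPM in vehicle libraries. For both genes all combination libraries were below all doxorubicin libraries, with log2 fold changes of -1.80 ± 0.28 and -2.18 ± 0.15. NPPA, encoding the atrial natriuretic peptide, varied within each group, with 0.973, 1.72 and 22.2 CPM in combination libraries and 36.1, 3.49 and 2.46 CPM in doxorubicin libraries, and was not called (log2 fold change -0.79 ± 1.17, adjusted p = 0.642).

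Of 44 tested members of the list of cardiac stress and fetal genes, 15 fell and 7 rose, with a median log2 fold change of -0.23, and 12 and 2 held those calls in each of the 9 fits that left out 1 library. Falls with those of NPPB, ANKRD1 and CTGF included POSTN, a matricellular protein of activated fibroblasts (-2.90 ± 0.25), the calcineurin regulator RCAN1 (-1.67 ± 0.16) and the intercalated disc protein XIRP2 (-1.53 ± 0.23). GDF15, a circulating stress cytokine, had 1 count in the combination libraries and 95 in the doxorubicin libraries, 91.0-fold lower (95% exact interval 15.9 to 3632). The rises that held were ACE, which makes angiotensin II, and NFATC1, a calcineurin-responsive transcription factor (1.37 ± 0.24). ACE had 81.5, 83.2 and 85.6 CPM in combination libraries, against 19.2, 20.3 and 28.8 CPM in doxorubicin libraries and 68.1 ± 13.7 CPM in vehicle libraries, a log2 fold change of 1.87 ± 0.18 (adjusted p = 8.75e-05).

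**Figure D2:**
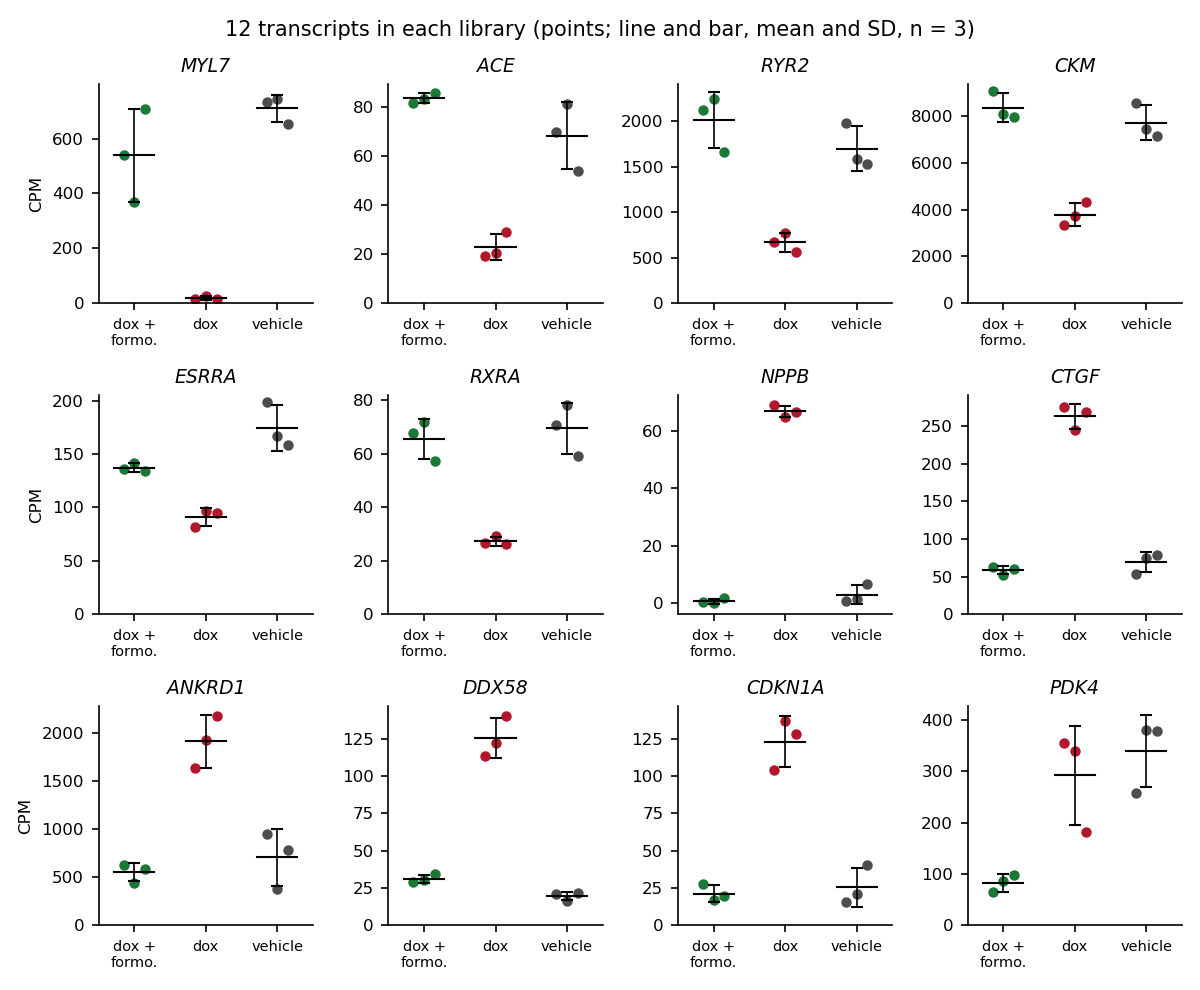
CPM of 12 transcripts (one panel each, linear y axis) in the 3 libraries each of doxorubicin plus formononetin (dox + formo.), doxorubicin (dox) and vehicle, as points, with the mean as a line and the SD as a bar. All 3 combination libraries lie above all 3 doxorubicin libraries for MYL7, ACE, RYR2, CKM, ESRRA and RXRA and below them for NPPB, CTGF, ANKRD1, DDX58, CDKN1A and PDK4.

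Most interferon response genes fell. In that list 38 of 52 tested members fell and 1 rose, with a median log2 fold change of -0.98 beside -0.01 over all genes, and 33 fell in each of the 9 fits that left out 1 library. DDX58, the cytosolic RNA sensor RIG-I, had 28.8, 30.5 and 34.2 CPM in combination libraries, against 114, 122 and 141 CPM in doxorubicin libraries and 19.6 ± 2.79 CPM in vehicle libraries. EIF2AK2, the double-stranded RNA kinase PKR, had 38.6, 44.4 and 48.0 CPM in combination libraries, against 143, 137 and 128 CPM in doxorubicin libraries and 36.1 ± 2.94 CPM in vehicle libraries. For each of these sensors all combination libraries were far below all doxorubicin libraries, with log2 fold changes of -2.01 ± 0.13 (adjusted p = 1.69e-05) and -1.64 ± 0.11 (2.12e-05). The RNA sensor IFIH1 fell by 1.58 ± 0.16 and the ubiquitin-like modifier ISG15 by 2.10 ± 0.26. The antiviral effectors IFIT3 (-1.78 ± 0.18), MX1 (-1.21 ± 0.21) and RSAD2 (-1.24 ± 0.17) fell as well, as did CXCL10, a chemokine for T cells (-2.33 ± 0.25). DDX58 remained above vehicle in combination libraries (log2 fold change 0.67, adjusted p = 0.0311), while ISG15 (0.70, adjusted p = 0.219) was not called between combination and vehicle.

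Class I genes of the swine leukocyte antigen complex moved in different directions. SLA-2 had 71.1, 66.3 and 72.2 CPM in combination libraries, against 292, 268 and 385 CPM in doxorubicin libraries and 505 ± 72.9 CPM in vehicle libraries. Combination libraries were thus lowest of the 3 groups, with a log2 fold change of -2.17 ± 0.15 over doxorubicin and -2.85 over vehicle (adjusted p = 2.13e-05 and 4.69e-06). SLA-3, the single interferon list member that rose, had 24.6, 34.5 and 22.0 CPM in combination libraries, against 15, 13.0 and 17.3 CPM in doxorubicin libraries and 8.42 ± 2.02 CPM in vehicle libraries. Its log2 fold change was 0.84 ± 0.21, and without doxorubicin replicate 2 its adjusted p was 0.0579. These genes are near-identical and differ between animals, so the split of reads among SLA-2, SLA-3 and SLA-5 is uncertain.

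Macrophage and monocyte markers were lower, and inflammatory signalling genes were split. None of 29 tested macrophage and monocyte genes rose and 13 fell (median log2 fold change -0.79), 7 of them in each fit that left out 1 library. In bulk tissue fewer cells of a type and less RNA per cell cannot be told apart. The lysosomal protein LAPTM5 had 54.8, 54.0 and 50.5 CPM in combination libraries, against 115, 98.4 and 95.9 CPM in doxorubicin libraries and 49.4 ± 5.04 CPM in vehicle libraries, a log2 fold change of -0.96 ± 0.11. The scavenger receptor MSR1 (-2.00 ± 0.31), the calcium-binding protein AIF1 (-1.61 ± 0.23), the protease CTSS (-0.81 ± 0.15) and the Fc receptor FCGR3A (-0.83 ± 0.16) fell too. The summed level of the 29 genes was 1233 to 1313 CPM in combination libraries, 1380 to 1626 CPM in doxorubicin libraries and 954 to 1111 CPM in vehicle libraries, with no overlap. In the list of NF-kappa-B targets, chemokines and cytokines, 6 of 46 rose and 8 fell (4 and 3 in each fit that left out 1 library). NFKBIA, the inhibitor of NF-kappa-B, rose by 1.48 ± 0.14, and the monocyte chemokine CCL2 fell by 2.36 ± 0.26. CCL2 had 8.58, 4.24 and 6.36 CPM in combination libraries and 33.0, 32.2 and 33.0 CPM in doxorubicin libraries, with 12.5 ± 3.74 CPM in vehicle libraries. SELE, the endothelial adhesion molecule E-selectin, had 1 count in combination libraries and 103 in doxorubicin libraries, 98.7-fold lower (95% exact interval 17.3 to 3935). Of 19 lymphocyte genes CD7, CD52 and GNLY rose and none fell. Of 8 tested genes of neutrophils, mast cells, red cells and platelets the beta globin HBB rose. The share of rises in both lists was near the 14.7% of all genes. The median log2 fold change of the lymphocyte list was 0.09, and -0.12 without combination replicate 2. Its summed level overlapped between combination and doxorubicin libraries. CD7 rested on 65 counts against 6. The call of GNLY was lost without combination replicate 2 or doxorubicin replicate 2 or 3 (highest adjusted p = 0.108), and that of HBB in 5 of the 9 fits (highest 0.121).

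Transcripts of the p53 response, of cell death and of the cell cycle fell more often than they rose. CDKN1A, whose product p21 halts the cell cycle when p53 is active, had 27.4, 16.6 and 19.4 CPM in combination libraries, against 104, 137 and 128 CPM in doxorubicin libraries and 25.4 ± 13.2 CPM in vehicle libraries. The combination and vehicle libraries of CDKN1A overlapped and the doxorubicin libraries were all higher, with a log2 fold change of -2.54 ± 0.31 (adjusted p = 3.37e-04). Among 46 p53 target and DNA damage genes 16 fell and 5 rose (median -0.22), and 12 and 4 held their calls in each fit that left out 1 library. The p53 targets ZMAT3 (-1.93 ± 0.16), BTG2 (-1.79 ± 0.14) and MDM2, the ubiquitin ligase that restrains p53 (-1.17 ± 0.10), fell with CDKN1A. GADD45G, the translesion polymerase POLH, the mTOR inhibitor DDIT4, the base excision repair scaffold XRCC1 and PARP1 were the 5 that rose, by 1.11, 1.55, 0.87, 1.04 and 0.31 on the log2 scale. The call of PARP1 was lost in 8 of the 9 fits (highest adjusted p = 0.155).

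Genes of cell death gave a like count, with 11 of 34 lower and 4 higher (median -0.29; 9 and 2 in each fit that left out 1 library). CASP1, the inflammasome caspase, had 2.56, 1.66 and 2.29 CPM in combination libraries, against 12.2, 9.71 and 11.1 CPM in doxorubicin libraries and 1.35 ± 0.128 CPM in vehicle libraries. DFNA5, the pore former gasdermin E, had 39.3, 37.8 and 39.5 CPM in combination libraries, against 80.2, 89.1 and 91.2 CPM in doxorubicin libraries and 34.7 ± 0.890 CPM in vehicle libraries. Both were separated without overlap, with log2 fold changes of -2.34 ± 0.24 and -1.16 ± 0.09. The survival factor MCL1 (-0.97 ± 0.12) fell too. The 4 that rose were HRK and BMF, which promote apoptosis, the pore former BAK1 and the survival factor BCL2L1. The calls of BMF and BAK1 were lost in 5 and 4 of the 9 fits (highest adjusted p = 0.127 and 0.0987).

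Cell cycle genes fell in 15 of 56 cases, and CDC25B, a phosphatase that starts mitosis, was the single rise (median -0.58). The 7 that fell in each fit included the spindle and cytokinesis proteins CENPF (-1.87 ± 0.32), ANLN (-1.29 ± 0.22) and KIF11 (-1.56 ± 0.33) and the thymidylate synthase TYMS (-1.94 ± 0.36). Without doxorubicin replicate 1 the count of falls was 7, and without combination replicate 2 it was 19. TOP2A, the topoisomerase II of dividing cells, had 5.90, 1.2 and 4.46 CPM in combination libraries and 17.0, 10.2 and 8.98 CPM in doxorubicin libraries (log2 fold change -1.65 ± 0.46; adjusted p = 0.0952 without doxorubicin replicate 1). TOP2B, the form of non-dividing cells and a cardiac target of doxorubicin, averaged 132 ± 18.7 CPM in combination libraries and 149 ± 6.76 CPM in doxorubicin libraries and was not called (log2 fold change -0.17 ± 0.11, adjusted p = 0.273).

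Chaperones of the endoplasmic reticulum and of the cytosol were lower in large numbers. The list of the integrated stress and unfolded protein response had 20 falls and 1 rise among 39 tested members (median -0.48), with 11 falls in each fit that left out 1 library. HSPA5, the chief chaperone of the endoplasmic reticulum, had 181, 142 and 186 CPM in combination libraries, against 405, 393 and 398 CPM in doxorubicin libraries and 228 ± 6.89 CPM in vehicle libraries, a log2 fold change of -1.24 ± 0.11 (adjusted p = 7.63e-05). All combination libraries of HSPA5 were below all others. Its partners DNAJB9 (-1.44 ± 0.21), HSP90B1 (-0.63 ± 0.09), PDIA3 (-0.60 ± 0.09) and CALR (-0.59 ± 0.11) fell, as did the transcription factor XBP1 (-0.54 ± 0.10). ATF4 (0.27 ± 0.11, adjusted p = 0.0800) and DDIT3 (0.46 ± 0.25, adjusted p = 0.198), which act in the arm that lowers translation, were not called. The serine synthesis enzyme PSAT1 was the 1 rise (1.56), a call lost without combination replicate 1 or doxorubicin replicate 2 (highest adjusted p = 0.0707). Heat shock proteins and chaperones fell in 18 of 37 cases and rose in 2 (median -0.37; 12 and 0 in each fit that left out 1 library). HSPH1, a nucleotide exchange factor for HSP70, had 16.7, 15.5 and 15.9 CPM in combination libraries and 32.9, 34.5 and 33.1 CPM in doxorubicin libraries (-1.06 ± 0.11), and the co-chaperone DNAJA1 (-0.91 ± 0.13) and HSPA4 (-0.54 ± 0.10) fell with it. DNAJB2 and FKBP4 were the 2 rises, each lost without combination replicate 1, doxorubicin replicate 1 and 1 other doxorubicin library (highest adjusted p = 0.0762 and 0.101).

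Degradation pathways gave no common direction. Proteasome subunits fell in 9 of 36 cases and PSMA7, PSMD4 and PSMC3 rose. Without combination replicate 2 or doxorubicin replicate 3 the falls numbered 4, and PSMD12 of the regulatory particle (-0.80 ± 0.12) was among those that held. PSMA7 held in each fit, whereas PSMD4 and PSMC3 lost their calls in 3 and 7 of the 9 (highest adjusted p = 0.0866 and 0.169). In the muscle atrophy and autophagy list 16 of 49 rose and 8 fell (7 and 5 in each fit that left out 1 library). FOXO4, a transcription factor of atrophy programmes (1.05 ± 0.13), and the autophagy kinase ULK1 (0.57 ± 0.11) rose, while the lipidation enzyme ATG3 (-0.77 ± 0.14) and the lysosomal protease CTSB (-0.55 ± 0.11) fell. The muscle ubiquitin ligases TRIM63 and FBXO32 were not called (adjusted p = 0.788 and 0.189). Cytosolic ribosomal proteins rose in 15 of 78 cases and fell in 4, RPS27, RPS29, RPS13 and RPL10A. RPL36 (0.99 ± 0.12) and RPS19 (0.76 ± 0.14) were among the 7 that rose in each fit, and the count of rises was 7 without doxorubicin replicate 2 and 24 without doxorubicin replicate 3, and 46 by limma-voom with sample weights. The calls of RPS13 and RPL10A were lost in 1 fit, without doxorubicin replicate 3, and in 6 of the 9 (adjusted p = 0.0599 and at most 0.115).

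ESRRA, the gene of the receptor named in the series title, was higher with formononetin added and its coactivators were not. ESRRA (chromosome 2, 7803504 to 7812868) had 136, 142 and 134 CPM in combination libraries, against 81.3, 96.4 and 95.1 CPM in doxorubicin libraries and 175 ± 21.6 CPM in vehicle libraries. The 3 combination libraries were narrow and lay wholly above the doxorubicin libraries, with a log2 fold change of 0.59 ± 0.11 (adjusted p = 3.54e-03). In the same fit the log2 fold change of doxorubicin over vehicle was -0.94 (adjusted p = 2.11e-04) and that of combination over vehicle -0.35 (adjusted p = 0.156). PPARGC1A, encoding PGC-1 alpha, averaged 113 ± 3.13 CPM in combination libraries, 126 ± 7.89 CPM in doxorubicin libraries and 71.8 ± 6.62 CPM in vehicle libraries. PPARGC1B, encoding PGC-1 beta, averaged 33.4 ± 5.92 CPM in combination libraries, 32.6 ± 3.68 CPM in doxorubicin libraries and 81.1 ± 9.75 CPM in vehicle libraries. Neither coactivator was called against doxorubicin (log2 fold changes -0.15 ± 0.10 and 0.03 ± 0.15, adjusted p = 0.304 and 0.894), and both were called against vehicle, PPARGC1A at 0.66 and PPARGC1B at -1.28. The other receptors of the family, ESRRB (-0.39 ± 0.20, adjusted p = 0.171) and ESRRG (-0.04 ± 0.13, adjusted p = 0.832), were not called.

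Of 31 regulators in the list of ERR and PGC-1 biology 5 rose (8 with DESeq2) and 1 fell, with a median log2 fold change of 0.03, so that the share of calls was below the 28.1% of all genes. RXRA, the retinoid X receptor that pairs with many nuclear receptors, had 67.6, 71.8 and 57.2 CPM in combination libraries, against 26.5, 29.1 and 26.2 CPM in doxorubicin libraries and 69.5 ± 9.62 CPM in vehicle libraries, a log2 fold change of 1.27 ± 0.13 (adjusted p = 1.46e-04). PERM1, a muscle regulator induced by PGC-1 and ERR, had 127, 142 and 114 CPM in combination libraries, against 57.7, 70.2 and 76.8 CPM in doxorubicin libraries and 136 ± 18.1 CPM in vehicle libraries, a log2 fold change of 0.90 ± 0.14 (adjusted p = 1.23e-03). In both genes the combination libraries stood clear of the doxorubicin libraries and near the vehicle libraries. The mitochondrial deacetylase SIRT3 rose by 0.44 ± 0.13, and the call of SIRT3 was lost without combination replicate 1, doxorubicin replicate 1 or doxorubicin replicate 3 (adjusted p = 0.0916, 0.106 and 0.0680). PRKAA1, a catalytic subunit of the energy sensor AMPK, was the 1 fall (-0.56 ± 0.13). TFAM, which packages mitochondrial DNA (-0.04 ± 0.13), and NRF1, a regulator of respiratory genes (-0.08 ± 0.20), were not called (adjusted p = 0.829 and 0.795).

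ERR-alpha target genes were higher more often than lower. Of 38 tested, 14 rose, 2 fell and 22 were not called (median log2 fold change 0.23), and with combination replicate 2 left out 17 rose and 1 fell. By limma-voom with sample weights 23 rose. In each fit that left out 1 library 11 rises and 1 fall held. The count of rises was lowest, at 11, without combination replicate 1 or doxorubicin replicate 1. RYR2, the calcium release channel of the sarcoplasmic reticulum, had 2118, 2246 and 1665 CPM in combination libraries, against 673, 766 and 561 CPM in doxorubicin libraries and 1697 ± 248 CPM in vehicle libraries. CKM, the muscle creatine kinase, had 9067, 8073 and 7947 CPM in combination libraries, against 3326, 3724 and 4305 CPM in doxorubicin libraries and 7727 ± 752 CPM in vehicle libraries. Both were close to the vehicle level in every combination library and far lower in every doxorubicin library, with log2 fold changes of 1.59 ± 0.16 (adjusted p = 1.12e-04) and 1.14 ± 0.12 (1.68e-04). RYR2 and CKM are also members of the cardiomyocyte marker list, in which 8 of 14 rose (median 0.47). Enzymes of the TCA cycle rose among the targets, OGDH by 0.69 ± 0.10, IDH3G by 0.77 ± 0.12 and IDH3B by 0.79 ± 0.14. CPT1B, the muscle carnitine palmitoyltransferase of fat import into mitochondria, had 424, 378 and 449 CPM in combination libraries and 250, 283 and 284 CPM in doxorubicin libraries (0.61 ± 0.11), and the mitofusin MFN2 rose by 0.55 ± 0.11. The calcium pump ATP2A2 rose by 0.47 ± 0.12, a call lost without combination replicate 1 or doxorubicin replicate 1 (highest adjusted p = 0.0664).

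The 2 targets that fell were PDK4 and ACADM. PDK4, the kinase that shuts off pyruvate dehydrogenase when fat is burned, had 63.8, 86.9 and 98.3 CPM in combination libraries, against 355, 340 and 181 CPM in doxorubicin libraries and 339 ± 70.4 CPM in vehicle libraries. Combination libraries were thus lowest of the 3 groups for PDK4, with log2 fold changes of -1.82 ± 0.26 over doxorubicin and -2.03 over vehicle (adjusted p = 6.97e-04 and 2.96e-03). ACADM, the medium-chain acyl-CoA dehydrogenase, fell by 0.39, a call lost in 7 of the 9 fits that left out 1 library (highest adjusted p = 0.0903).

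**Figure D3:**
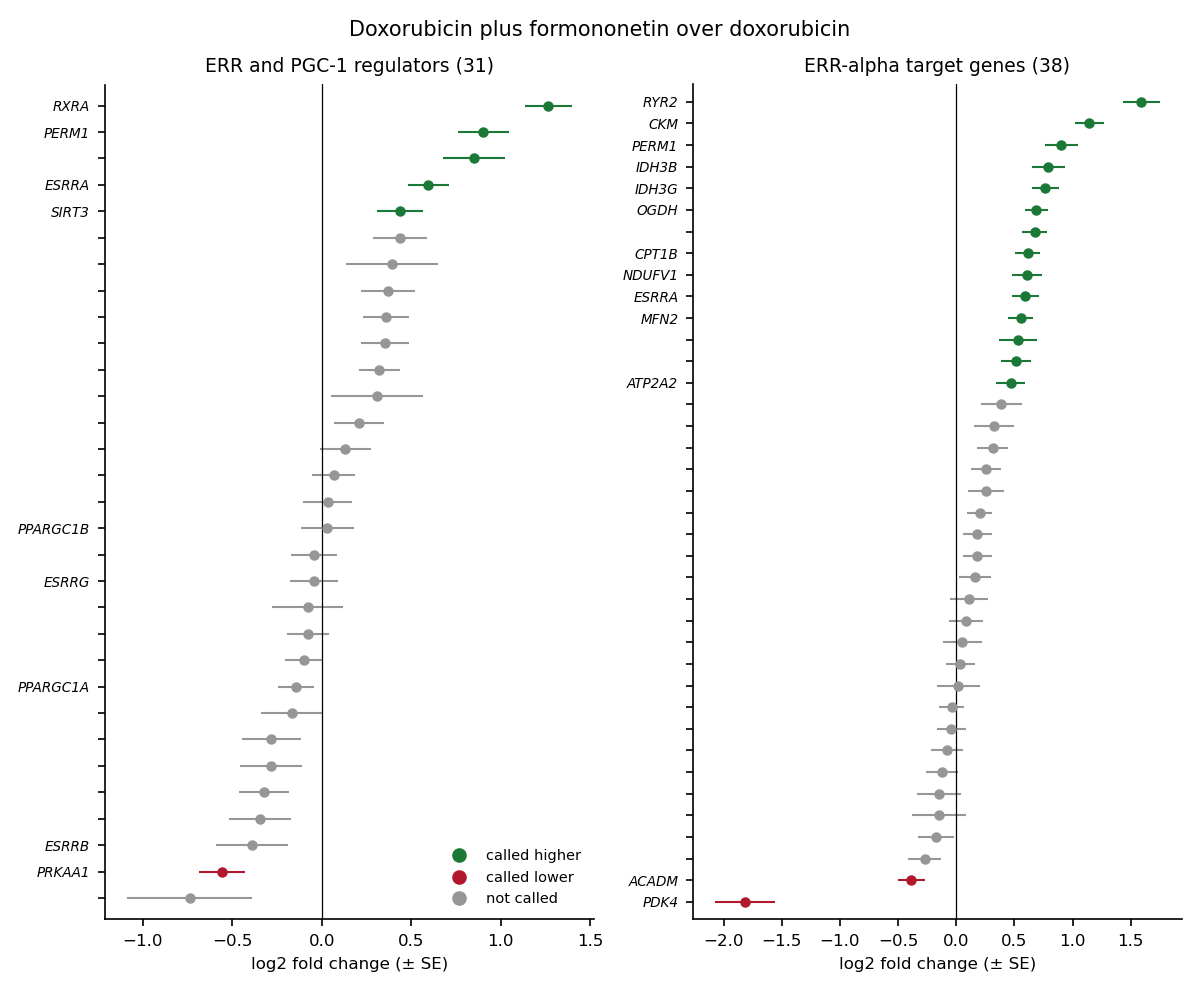
Log2 fold change of doxorubicin plus formononetin over doxorubicin (x axis, points, with bars of 1 SE) for 31 ERR and PGC-1 regulators (left) and 38 ERR-alpha target genes (right), green where called higher, red where called lower and grey where not called; some of the points carry gene names. RXRA at 1.27, RYR2 at 1.59 and CKM at 1.14 lie highest in their lists, and PDK4 at -1.82 lies lowest among the targets.

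Respiratory chain transcripts rose in part, and most subunits were not called. Over all genes tested 14.7% rose and 13.5% fell. Summed levels of complex I, of complexes II to V and of mitochondrially encoded subunits each overlapped between combination and doxorubicin libraries. Of 37 complex I subunits 13 rose and 2 fell (median 0.13), and 10 rose in each fit that left out 1 library. By limma-voom with sample weights 21 of them rose, and 16 of the 29 subunits of the other complexes. NDUFA3, an accessory subunit of complex I, had 111, 91.9 and 88.0 CPM in combination libraries, against 20.9, 31.6 and 26.7 CPM in doxorubicin libraries and 106 ± 7.07 CPM in vehicle libraries, a log2 fold change of 1.88 ± 0.15 (adjusted p = 3.91e-05). NDUFA10 (0.69 ± 0.12), NDUFA6 (0.77 ± 0.15) and the flavin-binding NDUFV1 (0.61 ± 0.13) rose by less. The 2 falls, NDUFS5 and NDUFB1, were lost in 2 fits (without combination replicate 2, adjusted p = 0.0617, and without doxorubicin replicate 3, 0.0801) and in 8 of the 9 (highest 0.160). Of 29 tested subunits of complexes II to V 7 rose, 4 of them in each fit, among them UQCRB of complex III (1.26 ± 0.14), COX8H of complex IV (1.26 ± 0.21) and ATP5G2 of the ATP synthase ring (0.67 ± 0.11). COX7A2 fell, a call lost in 7 of the 9 fits (highest adjusted p = 0.145). The share of calls in complexes II to V was below the 28.1% of all genes. Of the 13 subunits encoded in mitochondrial DNA 6 rose and none fell (median 0.25), and all 6 rises held in each fit that left out 1 library. COX3, a core subunit of complex IV, had 37274, 31207 and 40974 CPM in combination libraries and 18466, 21036 and 20203 CPM in doxorubicin libraries, with 28876 ± 878 CPM in vehicle libraries (log2 fold change 0.87 ± 0.11). CYTB of complex III rose by 0.60 ± 0.11, and ND1, ND3 and ND4L of complex I by 0.53 ± 0.13, 0.53 ± 0.12 and 0.71 ± 0.13. ATP8 rose by 3.17 ± 0.33 on levels of 11.5 ± 0.408 CPM in combination libraries and 1.29 ± 0.696 CPM in doxorubicin libraries, while ATP6, whose reading frame overlaps it, averaged 33464 ± 5793 CPM in combination libraries and 28678 ± 1518 CPM in doxorubicin libraries and was not called. Reads of that overlap can be assigned to either gene, so the value of ATP8 is uncertain.

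Mitochondrial ribosomal proteins rose in 11 of 74 cases and fell in 6. The share of rises was near the 14.7% of all genes, and that of falls was below their 13.5%. Rises and falls numbered 17 and 2 without combination replicate 2, and 29 rose by limma-voom with sample weights. In each fit that left out 1 library 4 rises and 0 falls held, MRPS2 (1.0 ± 0.13) and MRPL28 (0.85 ± 0.11) among the rises. In the list of mitochondrial dynamics, import and mitophagy 16 of 44 rose and 10 fell (9 and 3 in each fit). MIEF2, which recruits the fission machinery, had 43.9, 44.7 and 39.8 CPM in combination libraries and 16.2, 20 and 15.7 CPM in doxorubicin libraries (1.31 ± 0.12), and the fission GTPase DNM1L fell by 0.58 ± 0.11. The import motor protein TIMM44 rose by 0.81 ± 0.11, and SSBP1, which coats single-stranded mitochondrial DNA, fell by 1.34 ± 0.16. In the list of creatine kinases, nucleotide carriers and porins CKM, the ADP/ATP carrier SLC25A6 (1.32 ± 0.10) and the creatine synthesis enzyme GATM (1.03 ± 0.25) rose among 17 tested. AK3 and the brain creatine kinase CKB were the 2 that fell, and both calls were lost without doxorubicin replicate 1 (adjusted p = 0.0511 and 0.140), that of CKB also without combination replicate 3, doxorubicin replicate 2 or vehicle replicate 3.

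Fuel metabolism showed more rises than falls in each list, beside 14.7% higher and 13.5% lower over all genes tested. The summed level of each list overlapped between combination and doxorubicin libraries. By limma-voom with sample weights the rises numbered 16 in the TCA cycle list, 16 in the fatty acid list and 14 in the branched-chain amino acid list, above the counts of the edgeR test given here. In the list of the TCA cycle and pyruvate 9 of 38 rose and 2 fell (median 0.14). In each fit that left out 1 library 7 of these rises and 1 of the falls held. PDHA1 of pyruvate dehydrogenase had 1033, 866 and 1128 CPM in combination libraries and 646, 728 and 706 CPM in doxorubicin libraries, with 920 ± 76.5 CPM in vehicle libraries (0.54 ± 0.12). PDK2, another kinase of that enzyme, rose by 0.81 ± 0.10, opposite to PDK4, and the second fall, the malic enzyme ME1, lost its call in 4 of the 9 fits (highest adjusted p = 0.0839). Fatty acid uptake and oxidation genes rose in 9 of 45 cases and ACSL4, CPT1A and ACADM fell. That share of calls was below the 28.1% of all genes. In each fit that left out 1 library 7 rises and 2 falls held. The lipase PNPLA2 (0.90 ± 0.11), the acyl-CoA synthetase ACSL1 (0.66 ± 0.12) and the transporter SLC27A6 (2.21 ± 0.45) rose beside CPT1B, whereas CPT1A, the carnitine palmitoyltransferase of liver, fell by 0.51 ± 0.12. Genes of glucose uptake, glycolysis and glycogen rose in 14 of 38 cases and fell in 6 (10 and 3 in each fit that left out 1 library). Muscle forms were among the rises, PGAM2 by 1.0 ± 0.12, ALDOA by 0.98 ± 0.12 and the insulin-responsive transporter SLC2A4 by 0.55 ± 0.13. LDHA, the lactate dehydrogenase subunit that favours lactate, had 42.9, 45.0 and 39.3 CPM in combination libraries, against 89.4, 80.6 and 98.1 CPM in doxorubicin libraries and 50.4 ± 3.89 CPM in vehicle libraries (-1.08 ± 0.11). Branched-chain amino acid and ketone catabolism had 9 rises and no fall among 30 (median 0.15), 4 of them in each fit. BCAT2, the mitochondrial branched-chain transaminase, rose by 0.81 ± 0.11 and the dehydrogenase IVD by 0.51 ± 0.12.

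Contractile genes went both ways, with stretch and Z-disc proteins among the falls. Of 46 sarcomere and Z-disc genes 12 rose and 7 fell (median 0.08), and 5 and 6 held in each fit that left out 1 library. Without doxorubicin replicate 1, or without doxorubicin replicate 2, the rises numbered 6. MYL3, the ventricular essential light chain, had 6195, 5260 and 5588 CPM in combination libraries, against 2815, 3000 and 3778 CPM in doxorubicin libraries and 5910 ± 569 CPM in vehicle libraries (0.83 ± 0.13). The tropomyosin TPM2 (0.95 ± 0.15), the heavy chain MYH7B (0.83 ± 0.14) and the myosin-binding protein MYBPC3 (0.50 ± 0.10) rose with MYL7 and MYL3. DES, the muscle intermediate filament, had 3181, 3226 and 2815 CPM in combination libraries, against 5613, 5521 and 5045 CPM in doxorubicin libraries and 3657 ± 395 CPM in vehicle libraries (-0.81 ± 0.11). FHL1 (-0.88 ± 0.14), CSRP3 (-0.80 ± 0.19) and the actin-binding NEXN (-0.45 ± 0.10) fell with ANKRD1 and XIRP2. MYL2, the ventricular regulatory light chain, averaged 6383 ± 807 CPM in combination libraries and 4719 ± 881 CPM in doxorubicin libraries and was not called (adjusted p = 0.0567). Of the 14 tested cardiomyocyte markers 8 rose and none fell (median 0.47), and RYR2, CKM, MYL3 and MYBPC3 rose in each fit. In the list of atrial and ventricular chamber genes 6 of 21 rose, MYL7 and the potassium channel subunit KCNIP2 (1.17 ± 0.14) among them, and PAM, DKK3 and KCNA5, which are enriched in atria, fell, with log2 fold changes of -0.87, -2.15 and -1.32. Which chamber or wall was sampled was not given, and its part in the values of chamber genes was not tested.

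Calcium handling and ion channel genes went both ways, 13 rising and 14 falling among 48. The calcium-dependent kinase CAMK2D rose by 0.63 ± 0.12 and the junctional anchor JPH2 by 0.52 ± 0.11 beside RYR2. JPH2 averaged 198 ± 23.2 CPM in combination libraries, 138 ± 8.22 CPM in doxorubicin libraries and 314 ± 22.9 CPM in vehicle libraries, between the other groups. CASQ2, which stores calcium in the sarcoplasmic reticulum, had 647, 533 and 767 CPM in combination libraries, against 1208, 1244 and 1233 CPM in doxorubicin libraries and 785 ± 40.2 CPM in vehicle libraries (-0.92 ± 0.13). The skeletal form CASQ1 (-1.15 ± 0.14) and the gap junction protein GJA1 (-0.82 ± 0.09) fell as well. The pump inhibitor PLN was not called (-0.13 ± 0.14, adjusted p = 0.528).

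**Figure D4:**
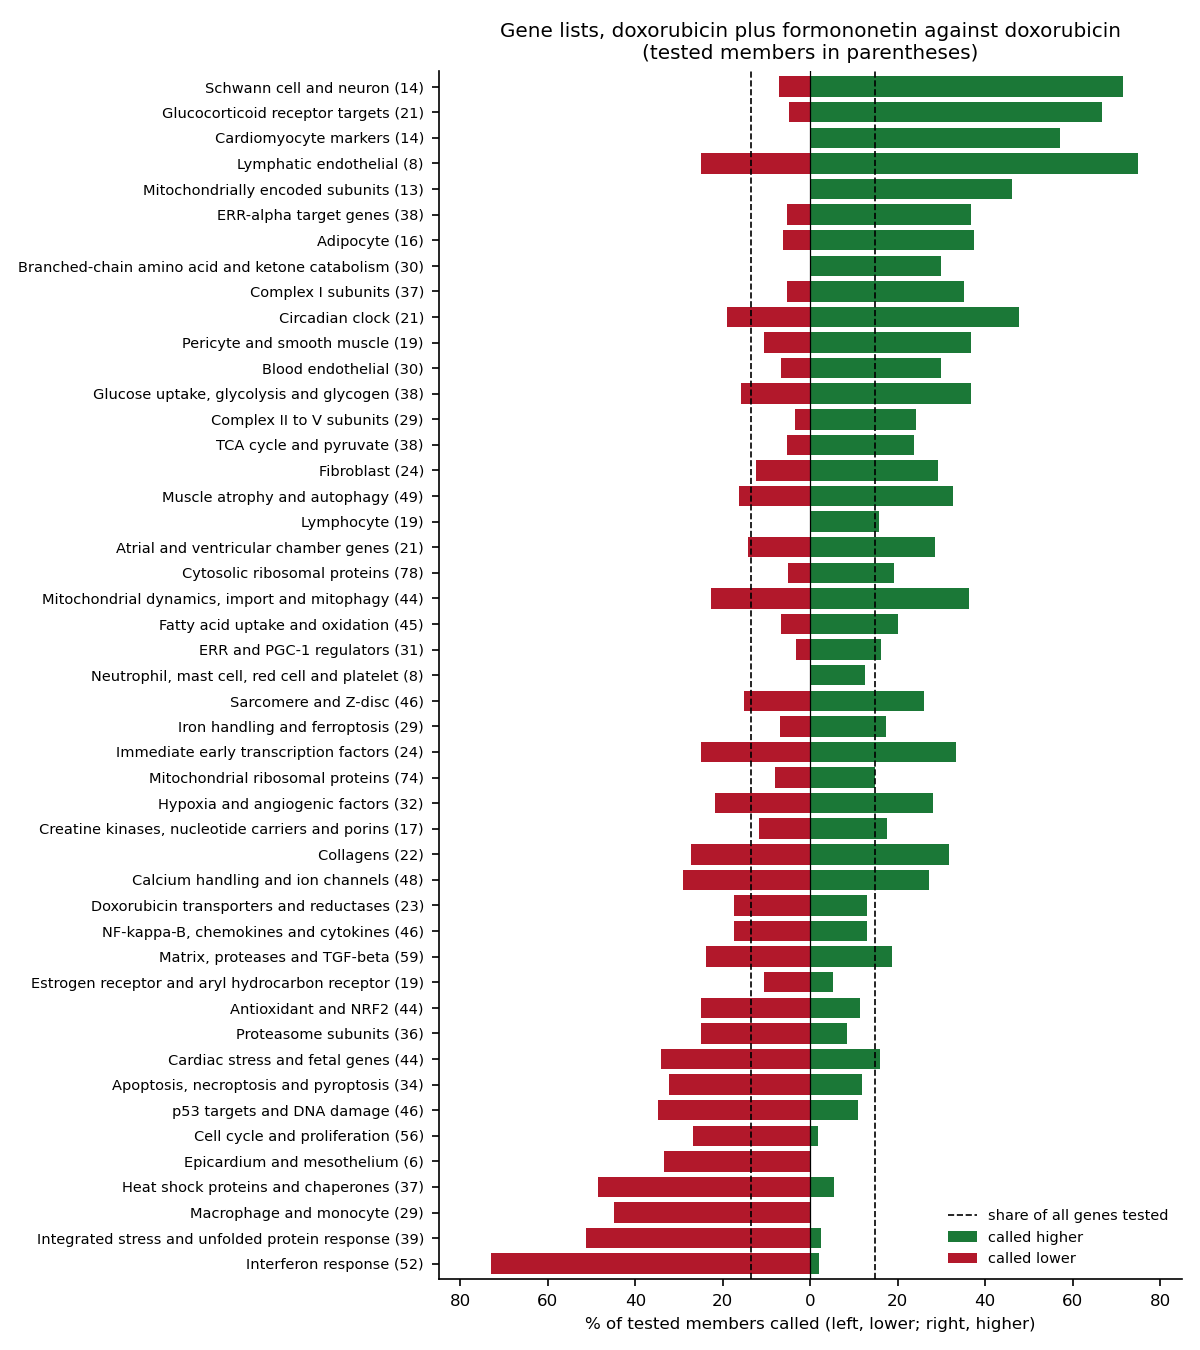
Share of tested members of each of the 47 gene lists called higher (bars to the right) or lower (bars to the left) in doxorubicin plus formononetin against doxorubicin, with dashed lines at 14.7% and 13.5%, the shares of all 14846 genes tested. The interferon response list reaches furthest to the left, with 38 of 52 members lower, and the lymphatic endothelial (6 of 8) and Schwann cell and neuron (10 of 14) lists furthest to the right.

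Matrix genes and collagens went both ways. POSTN had 23.1, 33.2 and 22.3 CPM in combination libraries, against 236, 135 and 216 CPM in doxorubicin libraries and 24.1 ± 5.78 CPM in vehicle libraries. LTBP2, which binds fibrillin and is made by stressed fibroblasts, had 14.2, 17.9 and 9.57 CPM in combination libraries, against 97.6, 84.3 and 102 CPM in doxorubicin libraries and 14.5 ± 6.61 CPM in vehicle libraries (-2.76 ± 0.29). Combination and vehicle libraries were alike in level for both genes, and all doxorubicin libraries were higher. In the list of matrix, proteases and TGF-beta 14 of 59 fell and 11 rose (9 and 5 in each fit that left out 1 library). The crosslinking enzyme LOXL2 (-1.28 ± 0.18) and TGFB2 (-0.82 ± 0.13) fell, and the protease inhibitor TIMP3 (0.83 ± 0.09), the receptor TGFBR3 (1.14 ± 0.13) and the gelatinase MMP2 (0.97 ± 0.22) rose. Collagens rose in 7 of 22 cases and fell in 6 (6 and 2 in each fit). COL6A2 had 327, 453 and 231 CPM in combination libraries and 125, 84.5 and 96.8 CPM in doxorubicin libraries (1.72 ± 0.25), and COL27A1 (1.98 ± 0.22) and COL6A6 (2.21 ± 0.35) rose as well. COL12A1 (-1.94 ± 0.30) and the basement membrane chain COL4A1 (-0.65 ± 0.10) fell, and COL1A1, the main fibrillar chain, was not called at 705, 897 and 227 CPM in combination libraries and 470, 439 and 487 CPM in doxorubicin libraries (adjusted p = 0.475).

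Fibroblast markers rose in 7 of 24 cases and POSTN, MEOX1 and FAP, 3 genes of activated fibroblasts, fell. PDGFRA, the receptor that marks resident fibroblasts, had 57.2, 74.9 and 71.6 CPM in combination libraries, against 34.0, 12.1 and 9.90 CPM in doxorubicin libraries and 67.8 ± 16.4 CPM in vehicle libraries. The groups of PDGFRA did not overlap, and doxorubicin replicate 1 lay nearest to the combination libraries. Its log2 fold change was 1.86 ± 0.38 (2.62 without doxorubicin replicate 1), that of the ferritin receptor SCARA5 was 4.05 ± 0.69 (6.52) and that of complement C7 was 2.91 ± 0.54 (3.67). GSN, an actin-severing protein, rose by 1.80 ± 0.27. The calls of MEOX1 and FAP were lost in 1 fit, without doxorubicin replicate 1, and in 6 of the 9 (adjusted p = 0.0783 and at most 0.187). The summed level of the fibroblast list was 7893, 9495 and 4599 CPM in combination libraries and 5303, 3568 and 4708 CPM in doxorubicin libraries, which overlap, and combination replicate 3 was the lowest of its group.

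Endothelial genes rose more often than they fell. Blood endothelial genes rose in 9 of 30 cases and PLVAP and ESM1 fell (median 0.24; 8 and 1 in each fit that left out 1 library). AQP1, the water channel of capillaries, had 399, 391 and 504 CPM in combination libraries, against 186, 179 and 192 CPM in doxorubicin libraries and 399 ± 71.2 CPM in vehicle libraries (1.22 ± 0.15). VWF, the platelet-binding factor of endothelium (0.81 ± 0.13), the VEGF receptor FLT1 (1.06 ± 0.16) and the angiogenic factor EGFL7 (0.91 ± 0.13) rose too, and PECAM1 was not called at 280 ± 14.4 CPM in combination libraries and 280 ± 40.8 CPM in doxorubicin libraries. ESM1 fell by 2.67 (-4.39 without combination replicate 2), a call lost without combination replicate 1 or doxorubicin replicate 3 (highest adjusted p = 0.0647). Of 8 lymphatic endothelial genes 6 rose and 2 fell (median 1.71). CCL21, the chemokine of lymphatic vessels, had 25.8, 33.8 and 16.5 CPM in combination libraries and 4.24, 5.45 and 10.2 CPM in doxorubicin libraries, with 32.3 ± 5.30 CPM in vehicle libraries (1.94 ± 0.32). The hyaluronan receptor LYVE1 (1.95 ± 0.42), the transcription factor TBX1 (2.11 ± 0.36), RELN (2.05 ± 0.38) and MMRN1 (1.28 ± 0.24) rose, and the mucin PDPN (-0.88 ± 0.12) fell. PROX1, the master regulator of lymphatic identity, fell by 0.29, a call lost in 8 of the 9 fits (highest adjusted p = 0.0923). The summed level of these 8 genes was 191, 239 and 163 CPM in combination libraries and 172 to 175 CPM in doxorubicin libraries, so the sums overlap.

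Schwann cell and neuronal genes rose in 10 of 14 cases, with 9 in each fit that left out 1 library, and had a median log2 fold change of 1.48. ERBB3, the neuregulin receptor of Schwann cells, had 22.1, 19.2 and 19.9 CPM in combination libraries, against 6.23, 4.15 and 5.41 CPM in doxorubicin libraries and 15.9 ± 3.37 CPM in vehicle libraries (1.95 ± 0.20, adjusted p = 1.55e-04). SOX10, the glial lineage factor, rose by 2.77 ± 0.44. UCHL1 was the 1 fall, lost in 6 of the 9 fits (highest adjusted p = 0.143). The summed level of the list was 286, 333 and 188 CPM in combination libraries, 122 to 125 CPM in doxorubicin libraries and 149 to 157 CPM in vehicle libraries, with no overlap.

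Pericyte and smooth muscle genes rose in 7 of 19 cases and DES and KCNJ8 fell, and all 9 calls held in each fit that left out 1 library. PDGFRB, the pericyte receptor, had 121, 140 and 123 CPM in combination libraries and 75.2, 83.4 and 68.9 CPM in doxorubicin libraries (0.76 ± 0.11). MYH11, the heavy chain of smooth muscle, had 411, 346 and 56.8 CPM in combination libraries, against 18.1, 27.9 and 32.7 CPM in doxorubicin libraries and 101 ± 56.5 CPM in vehicle libraries, and combination replicate 3 was again the lowest of its group. ACTA2 had 395, 337 and 75.8 CPM in combination libraries and 87.4, 113 and 154 CPM in doxorubicin libraries and was not called (adjusted p = 0.0894). Adipocyte genes rose in 6 of 16 cases (4 in each fit), and PLIN2 fell, a call lost without doxorubicin replicate 1 (adjusted p = 0.0551). CFD, the fat-derived complement protease adipsin, had 98.2, 118 and 85.1 CPM in combination libraries and 21.7, 18.4 and 25.5 CPM in doxorubicin libraries, with 91.1 ± 16.3 CPM in vehicle libraries (2.20 ± 0.18). The defining adipocyte genes ADIPOQ and PLIN1 were at 3.26 ± 3.56 and 0.599 ± 0.680 CPM in combination libraries and 0.178 ± 0.308 and 0.212 ± 0.0793 CPM in doxorubicin libraries and were not called. Of 6 tested genes of the epicardium and mesothelium PDPN and KRT8 fell, and the call of KRT8 was lost in 5 of the 9 fits (highest adjusted p = 0.137).

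**Figure D5:**
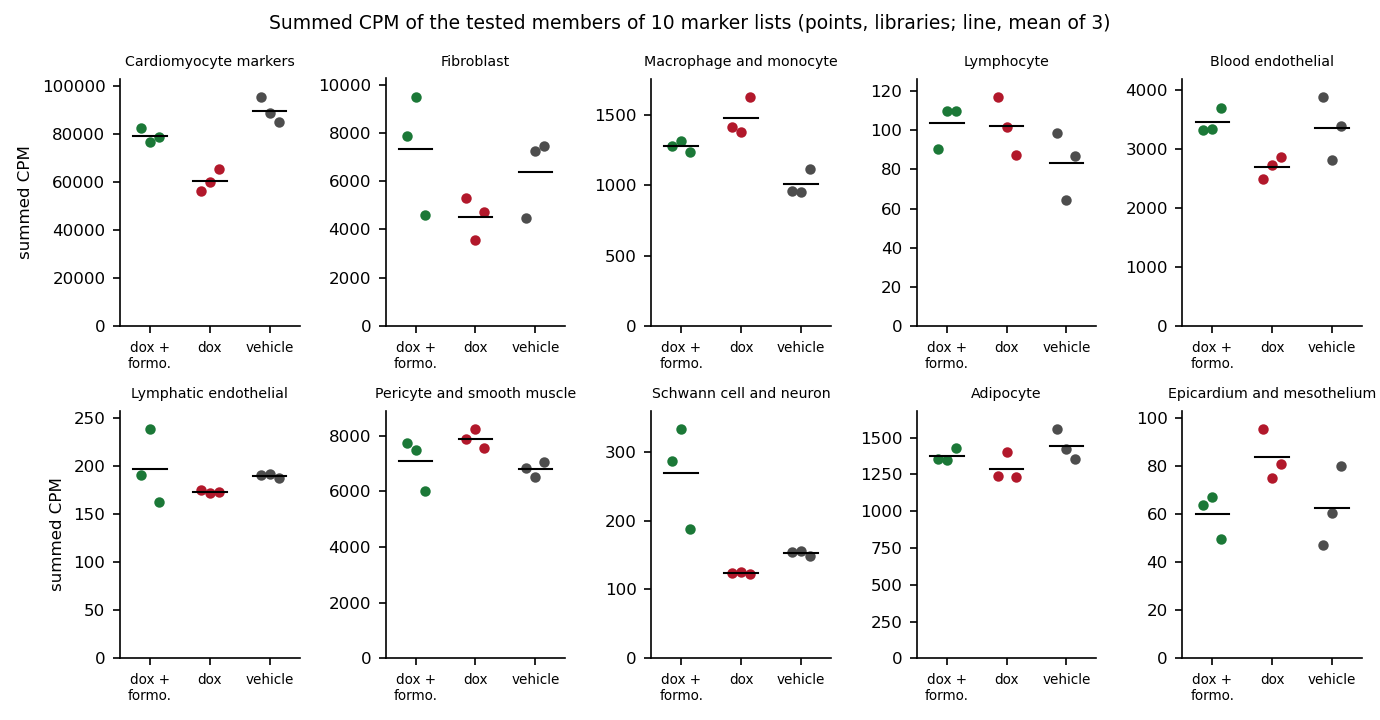
Summed CPM (y axis, from 0) of the tested members of 10 marker lists in each library of doxorubicin plus formononetin (dox + formo.), doxorubicin (dox) and vehicle, as points, with the mean of 3 as a line. Combination libraries lie wholly above doxorubicin libraries for cardiomyocyte, blood endothelial and Schwann cell and neuron markers and wholly below them for macrophage and monocyte and for epicardium and mesothelium markers, and the fibroblast and lymphatic endothelial groups overlap.

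Estrogen receptors and the aryl hydrocarbon receptor were low or not called. ESR1, encoding estrogen receptor alpha, had 21, 0 and 9 counts in combination libraries and 21, 7 and 9 counts in doxorubicin libraries and was not called (adjusted p = 0.897). ESR2, encoding estrogen receptor beta, had 1, 0 and 3 counts in combination libraries and 7, 5 and 8 counts in doxorubicin libraries, too few to be tested. The membrane receptor GPER1 (2.91 ± 0.842 CPM in combination libraries and 3.51 ± 0.208 CPM in doxorubicin libraries, adjusted p = 0.554) and the xenobiotic enzyme CYP1A1 (0.396 ± 0.369 CPM in combination libraries and 0.219 ± 0.250 CPM in doxorubicin libraries, adjusted p = 0.623) were not called. AHR, the aryl hydrocarbon receptor that binds many plant compounds, averaged 47.1 ± 7.02 CPM in combination libraries and 61.2 ± 8.45 CPM in doxorubicin libraries, with a log2 fold change of -0.38 and an adjusted p of 0.0623 by edgeR. It was called by DESeq2 (adjusted p = 0.0452), by limma-voom with sample weights (-0.63, adjusted p = 1.08e-03), without combination replicate 2 (0.0350) and without doxorubicin replicate 3 (0.0295), and its highest adjusted p with 1 library left out was 0.189. In the list around these receptors ALDH3A1 rose and XBP1 and NQO1 fell among 19, below the share of all genes, and the calls of ALDH3A1 and NQO1 were lost in 4 and 7 of the 9 fits (highest adjusted p = 0.101 and 0.0943). The list of doxorubicin transporters and reductases also holds the receptor gene RARG and the topoisomerase gene TOP2A. Of its 23 tested members 3 rose and 4 fell, shares near the 14.7% and 13.5% of all genes. By limma-voom with sample weights 7 fell. RARG, a retinoic acid receptor linked in people to anthracycline toxicity (1.14 ± 0.18), the reductase AKR7A2 (0.75 ± 0.14) and the efflux pump ABCC1 (0.60 ± 0.15) rose in each fit. None of the 4 falls, ABCB1, TOP2A, AKR1A1 and NQO1, held in each fit, and that of the efflux pump ABCB1 was lost without doxorubicin replicate 3 (adjusted p = 0.0536) and that of AKR1A1 in 3 of the 9 (highest 0.109).

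Of 21 tested glucocorticoid targets 14 rose and PDK4 fell (median 0.49), with 11 rises in each fit that left out 1 library. CDKN1C, a cell cycle inhibitor, had 19.0, 33.1 and 18.9 CPM in combination libraries, against 5.79, 4.15 and 5.60 CPM in doxorubicin libraries and 17.4 ± 1.25 CPM in vehicle libraries (2.19 ± 0.24). KLF9 (1.3 ± 0.15), CEBPD (1.41 ± 0.21), HSD11B1, which regenerates active glucocorticoid (1.34 ± 0.19), TSC22D3 (0.61 ± 0.14) and PER1 (0.54 ± 0.10) rose, and FKBP5, a standard target, was not called (0.26 ± 0.12, adjusted p = 0.127). FKBP5 averaged 95.1 ± 3.85 CPM in combination libraries, 79.5 ± 4.58 CPM in doxorubicin libraries and 50.7 ± 7.83 CPM in vehicle libraries. Clock genes rose in 10 of 21 cases (6 in each fit), led by DBP, a direct output of the clock, with 5.96, 6.71 and 5.97 CPM in combination libraries and 2.37, 1.66 and 1.60 CPM in doxorubicin libraries (1.72 ± 0.25). RORA, NFIL3, ARNTL and BHLHE40 fell. The calls of RORA and ARNTL were lost without doxorubicin replicate 1 (adjusted p = 0.0542 and 0.0700) and that of BHLHE40 in each of the 9 fits (highest 0.169). The hour of sampling was not given, and its part in clock and glucocorticoid genes was not tested.

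Among 44 antioxidant and NRF2 genes 11 fell and 5 rose (6 and 3 in each fit that left out 1 library). TXN, encoding thioredoxin, had 21.5, 10.5 and 15.3 CPM in combination libraries, against 51.7, 40.6 and 60.4 CPM in doxorubicin libraries and 19.7 ± 1.48 CPM in vehicle libraries (-1.69 ± 0.23). GCLM, which supports glutathione synthesis, fell by 1.01 ± 0.15, the oxidase NOX4 by 0.91 ± 0.15 and the NRF2 gene NFE2L2 by 0.38 ± 0.09. HMOX2, the extracellular dismutase SOD3 (1.54 ± 0.31), MSRB1, UCP2 and GPX3 rose, and the calls of UCP2 and GPX3 were lost in 5 of the 9 fits each (highest adjusted p = 0.114 and 0.131). SOD2 and CAT, the mitochondrial dismutase and catalase, were not called (adjusted p = 0.0606 and 0.115). Of 29 genes of iron handling and ferroptosis FTL, ALAS1, ISCU, AIFM2 and STEAP3 rose and ACSL4 and NCOA4 fell. FTL, the ferritin light chain, had 404, 470 and 343 CPM in combination libraries and 235, 218 and 254 CPM in doxorubicin libraries (0.78 ± 0.13), and ACSL4, which makes lipids prone to peroxidation, fell by 0.55 ± 0.12. The calls of AIFM2 and STEAP3 were lost in 3 and 8 of the 9 fits (highest adjusted p = 0.108 and 0.132), and that of NCOA4 without combination replicate 1 (0.0579).

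Early response and hypoxia genes were mixed. Of 24 immediate early transcription factors 8 rose and 6 fell (6 and 2 in each fit), with the mRNA decay factor ZFP36 (1.32 ± 0.15) and the orphan receptor NR4A3 (1.45 ± 0.34) higher and JUNB (-1.19 ± 0.24) lower. NR4A3 was at 45.0 ± 17.9 CPM in combination libraries, 16.5 ± 4.70 CPM in doxorubicin libraries and 8.46 ± 3.02 CPM in vehicle libraries, highest with formononetin. Among 32 hypoxia and angiogenic genes 9 rose and 7 fell (8 and 6 in each fit). VEGFA had 107, 109 and 130 CPM in combination libraries and 77.1, 80.4 and 66.0 CPM in doxorubicin libraries (0.63 ± 0.12), EPAS1 rose by 0.72 ± 0.13, and HIF1A fell by 0.60 ± 0.11 and the growth factor FGF2 by 1.15 ± 0.22.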

How the data were processed

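Heart RNA was sequenced, and the values used are counts of reads per gene, which the authors deposited as 1 table for all libraries with pig gene identifiers of assembly Sscrofa11.1. No aligner, counting tool, strand setting or rule for reads that match several genes was given in the sources used here. The gene lengths the authors deposited beside the counts, in bases, were not used. Libraries were grouped by the treatment in their labels.

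The counts were tested with edgeR 4.0.16 in R 4.3.3. Genes passed filterByExpr with a minimum count of 10, library sizes were scaled by TMM, and the quasi-likelihood model had all 9 libraries and a mean for each of the 3 groups. The p-values were adjusted by Benjamini-Hochberg over the 14846 genes tested and called under 0.05. The SE of a log2 fold change is its size divided by the square root of the F statistic, and CPM are TMM-scaled. Depth was alike across libraries. Folds against a group at 0 use a floor of 3 counts per library, and exact intervals and floors cover counting error only.

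Alternatives were DESeq2 1.42.0, limma 3.58.1 (voom, with and without sample weights), other scalings and filters, the 6 libraries alone, a replicate block and leaving out each library. The calculations were tried on simulated counts with the same spread in all groups and few changed genes, unlike these data. That trial gives no error rate for these data. Members and gene lists were chosen with earlier results of these data known. Named genes are the 12 largest rises and falls called with and without combination replicate 2, with groups that do not overlap and a mean of at least 5 CPM in the higher group, up to 4 members per list with the smallest p, and a set named whatever their values (ERR and PGC-1 genes, natriuretic peptides, CDKN1A, topoisomerases, estrogen and aryl hydrocarbon receptor genes). Further members were named to complete small counts or to show genes not called, after their values were seen. Results of some genes are not reported here.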

Additional observations from a re-analysis of the deposited data

How the results depend on the processing

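Counts of calls between doxorubicin plus formononetin and doxorubicin kept within 1.5 times of 4173 under every alternative tool, scaling and filter run, at 4706 with DESeq2 and 5924 with limma-voom and sample weights. Leaving out 1 library gave 2801 to 4436 calls, 1474 to 2288 of them higher and 1327 to 2148 lower, with 969 to 1557 of at least 2-fold, and the lowest count of falls came without doxorubicin replicate 1. With only the 6 libraries compared, and so without the vehicle libraries in the estimate of spread, 2856 genes were called. Of these 1534 were higher and 1322 lower, and 982 changed at least 2-fold. Between doxorubicin plus formononetin and vehicle, where the main count was 262, no low count filter gave 488 calls, DESeq2 748, limma-voom with sample weights 1378, the replicate block 124 and leaving out 1 library 64 to 465; between doxorubicin and vehicle leaving out 1 library gave 3316 to 6657. Same-numbered combination and doxorubicin libraries had correlations of -0.089, 0.027 and -0.083 in their deviations from group means. With 3 libraries per group these values cannot decide whether the replicate numbers pair the libraries. With the replicate block 3486 genes were called between doxorubicin plus formononetin and doxorubicin (1800 higher, 1686 lower, 1065 of at least 2-fold). Among genes that were not called, ESR1 was 0.58 with sample weights and -1.29 to 0.39 when 1 library was left out, ESRRG was -0.11 to 0.046, NPPA -3.38 to 1.45 and PPARGC1B -0.10 to 0.16, so that the sign of each depended on the libraries used; the cause was not tested. At these depths a count of 0 in a library allows up to 3 counts.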
